A study of Danio rerio with 8 samples.

Results

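Cone opsins are the light-absorbing receptors of cone photoreceptors, and the amounts of RNA of 5 of their genes were compared between *elipsa* mutant zebrafish larvae and sibling controls. The genes were taken by symbol: *opn1sw1* (ultraviolet opsin), *opn1sw2* (blue), *opn1mw1* and *opn1mw2* (green) and *opn1lw2* (red), 5 of 20409 genes with a value. Controls were siblings of genotype wild-type or heterozygous (+/-) mixed in an unstated proportion, and mutants were homozygous (-/-) for *elipsa*, an allele of *traf3ip1*. All larvae were 4 dpf, untreated and taken whole, with circa 30 larvae in a tube. Each of 4 clutches, bred separately from the same parental strain, gave 1 control and 1 mutant tube that were processed together, so there were 8 libraries. The paper names a curled tail as typical of these mutants. Its account of the RNA preparation does not say how mutants were recognized. The study used these libraries to ask how defects of cilia alter gene expression.

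Zebrafish have 4 kinds of cones, and each makes an opsin for its own part of the spectrum. Opsin is made in the inner segment of the cell and carried through a connecting cilium to the outer segment, a modified cilium packed with membrane. *traf3ip1* encodes a component of the intraflagellar transport machinery that builds cilia and moves cargo along them. The green and the red opsin genes of zebrafish exist as tandem copies used at different ages and in different regions of the retina, and *opn1mw1* and *opn1lw2* are known as the copies switched on early in larvae. Other copies (*opn1mw3*, *opn1mw4* and *opn1lw1*) were not found among the genes with a value.

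The values were log2 CPM as deposited, that is, reads of a gene scaled to a common library total. All libraries had nearly the same distribution of values, with a highest value of 14.04, as quantile normalization leaves them, so sequencing depth is not known for any library and counting intervals cannot be given. CPM are not divided by transcript length, and such a normalization sets values by rank. Shares and sums below are therefore of these normalized CPM, called reads for short, and not of counted reads or of molecules. *traf3ip1* itself was lower in the mutant of all 4 clutches, with a difference of -0.83 on the log2 scale (standard error 0.18, limma adjusted p = 0.0751). This call was not kept when control 2, 3 or 4 or mutant 2, 3 or 4 was left out (limma adjusted p up to 0.217). With no clutch term it was also lost without clutch 2, 3 or 4 (limma adjusted p up to 0.458). Centering on housekeeping genes lost it too (limma adjusted p = 0.104). A fit with clutch as a block gave a limma adjusted p of 0.00679. Whole larvae hold many tissues besides the retina, so fewer cones and less opsin RNA per cone cannot be told apart.

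RNA of 4 of the 5 cone opsin genes was lower in mutants than in controls, by 3.57-fold to 7.08-fold, and the ultraviolet opsin gene fell the most. These 4 genes passed limma's moderated test at an adjusted p under 0.1. Over all genes, 1.52% were called, 1.16% lower and 0.363% higher. In these 4 genes every mutant library also lay below every control library, as in 3.34% of all genes. The fifth gene, the green opsin *opn1mw2*, was low in abundance and was higher in the mutant of every clutch. Of all genes, 14.4% were lower and 18% were higher in the mutant of all 4 clutches.

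*opn1sw1* encodes the ultraviolet opsin and took the most reads of the 5 genes in controls. In controls of clutches 1 to 4 it stood at 9.90, 10.95, 10.95 and 11.27 log2 CPM (956, 1977, 1977 and 2472 CPM). In the mutants of the same clutches it stood at 7.88, 7.69, 8.03 and 8.18 log2 CPM (235, 206, 261 and 290 CPM). Every mutant library lay below every control library, with a gap of 1.72 on the log2 scale between the lowest control and the highest mutant, which is wider than the spread within either group. The mean fell from 10.77 ± 0.60 (SD, n = 4) to 7.94 ± 0.21 (SD, n = 4), a log2 difference of -2.82 (standard error 0.26, limma adjusted p = 0.00107). This is a 7.08-fold lower level, with a 95% interval of 4.75 to 10.6. Within clutches the differences were -2.02, -3.26, -2.92 and -3.09, so clutch 1, which had the lowest control, showed the smallest fall. Among all genes, *opn1sw1* ranked 23 from the most negative difference.

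*opn1sw2* encodes the blue opsin. Its controls stood at 7.79, 8.47, 8.63 and 9.17 log2 CPM and its mutants at 6.61, 6.48, 6.77 and 6.86. The groups did not overlap, and clutch 1 again had the lowest control. The mean fell from 8.51 ± 0.57 (SD, n = 4) to 6.68 ± 0.17 (SD, n = 4), a log2 difference of -1.83 (standard error 0.24, limma adjusted p = 0.00667), or 3.57-fold (95% interval 2.46 to 5.17). The differences within clutches were -1.19, -1.99, -1.85 and -2.30.

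*opn1lw2* encodes a red opsin. In controls it stood at 9.28, 9.29, 9.57 and 10.56 log2 CPM, and in mutants at 7.92, 7.53, 7.59 and 7.77. Control 4 stood well above the other controls, while the mutants lay within 0.39 of each other and all below the controls. The mean fell from 9.68 ± 0.61 (SD, n = 4) to 7.70 ± 0.18 (SD, n = 4), a log2 difference of -1.97 (standard error 0.26, limma adjusted p = 0.00667), or 3.93-fold (95% interval 2.64 to 5.85). Within clutches it ranged from -1.36 in clutch 1 to -2.80 in clutch 4.

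*opn1mw1* encodes the green opsin with most reads here. Its controls stood at 8.71, 9.25, 9.42 and 10.18 log2 CPM and its mutants at 7.35, 7.25, 7.34 and 7.81. Clutch 4 was the highest in both groups, and the groups did not overlap. The mean fell from 9.39 ± 0.61 (SD, n = 4) to 7.44 ± 0.25 (SD, n = 4), a log2 difference of -1.95 (standard error 0.27, limma adjusted p = 0.00797), or 3.87-fold (95% interval 2.56 to 5.85). Within clutches it ranged from -1.36 in clutch 1 to -2.37 in clutch 4.

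Controls varied more than mutants in all 4 falling genes. Their SDs were 0.57 to 0.61 on the log2 scale in controls and 0.17 to 0.25 in mutants. The 4 falls were called in all 32 cases (1 gene in 1 fit) that left out 1 library (highest limma adjusted p = 0.0395). They were also called with clutch as a block (limma adjusted p from 5.94e-05 for *opn1sw1* to 0.000396 for *opn1lw2*). With both libraries of a clutch left out and no clutch term, *opn1sw2* was not called without clutch 2 (adjusted p = 0.127) or clutch 3 (adjusted p = 0.113), *opn1mw1* without clutch 2 (adjusted p = 0.132) or clutch 3 (adjusted p = 0.137), nor *opn1lw2* without clutch 3 (adjusted p = 0.110). With the block, the 4 falls were called in all 16 cases that left out 1 clutch (highest limma adjusted p = 0.00308).

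**Figure D1:**
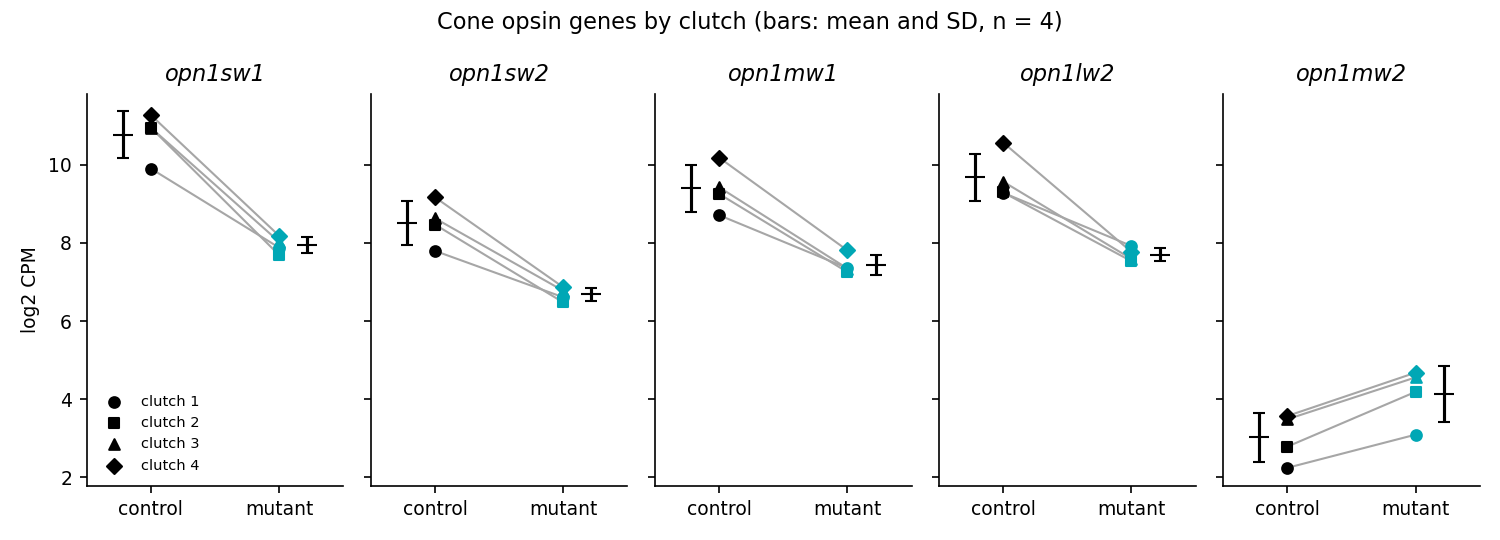
Log2 CPM of the 5 cone opsin genes in 4 control (black) and 4 mutant (cyan) libraries, with a line joining the libraries of a clutch and bars for the mean and SD of each group (n = 4). In the first 4 panels every mutant lies below every control, and in the last panel *opn1mw2* is higher in the mutant of each clutch while the groups overlap.

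*opn1mw2*, the second green opsin gene, ran the other way. Its controls held 4.73, 6.89, 11.2 and 11.9 CPM and its mutants 8.53, 18.2, 23.5 and 25.6 CPM, far fewer reads than the other 4 genes. On the log2 scale these were 2.24, 2.79, 3.49 and 3.57 in controls and 3.09, 4.19, 4.56 and 4.68 in mutants. The groups overlapped, since mutant 1 lay below controls 3 and 4, but the order of the clutches was the same in both groups. Control libraries averaged 3.02 ± 0.63 and mutant libraries 4.13 ± 0.72 (SD, n = 4 each). The log2 difference of 1.11 (standard error 0.39) did not pass (limma adjusted p = 0.295). Its 95% interval, not adjusted over genes, was 1.18-fold to 3.92-fold higher. Among all genes, *opn1mw2* ranked 65 from the most positive difference. Within clutches the mutant was higher by 0.85, 1.40, 1.07 and 1.11. With clutch as a block the standard error was 0.11 and *opn1mw2* was called higher (limma adjusted p = 0.000433), by 2.16-fold with a 95% interval of 1.83 to 2.55. With the block, 14.3% of all genes were called, 6.48% as higher and 7.86% as lower. Without the block, *opn1mw2* was also called higher when mutant 1 was left out (log2 difference 1.45, limma adjusted p = 0.0992) or both libraries of clutch 1 (1.19, adjusted p = 0.0266). The block fits without clutch 1, 2, 3 or 4 gave 1.19, 1.01, 1.12 and 1.11 (adjusted p 0.00106 to 0.0049).

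*opn1mw1* and *opn1mw2* lie next to each other on the same chromosome in the gene order of the RefSeq annotation (GRCz12tu, used for names and order only), followed by *opn1mw3* and *opn1mw4*. These copies are similar in sequence and the counting could have divided reads between them, so their separate values are uncertain. *opn1mw2* made up 1.12%, 1.12%, 1.60% and 1.01% of the reads of both genes in controls. In mutants it made up 4.96%, 10.7%, 12.7% and 10.3%. All 4 mutants were above all 4 controls, and mutant 1 was the lowest mutant. Of single genes, 3.55% had every mutant above every control. The mean share was 1.21% ± 0.27 in controls and 9.64% ± 3.29 in mutants (SD, n = 4 each, exact permutation test over the 70 splits, two-sided, p = 0.0286, the smallest this design allows). Added together, the pair fell by 1.82 on the log2 scale (exact permutation test, p = 0.0286). A sum of counts would not depend on how reads were divided between *opn1mw1* and *opn1mw2*. This sum is of values normalized after counting, so it may still depend on that division.

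The 5 genes together held 2223, 3575, 3830 and 5735 CPM in controls and 747, 651, 749 and 875 CPM in mutants. Controls were 2.98, 5.49, 5.11 and 6.56 times as high as the mutants of the same clutch, so clutch 1 showed the smallest ratio of the sum as well. The mean sum was 3841 ± 1446 CPM in controls and 755 ± 91.8 CPM in mutants (SD, n = 4 each).

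The composition of these reads also differed between the groups. The ultraviolet opsin gene *opn1sw1* took the largest share in all controls, at 43.0%, 55.3%, 51.6% and 43.1%. In mutants it took 31.5%, 31.7%, 34.9% and 33.2%, below every control, and in mutant 1 it came after *opn1lw2* (32.4%). Its mean share fell from 48.3% ± 6.20 to 32.8% ± 1.57 (SD, n = 4 each; exact permutation test, two-sided, p = 0.0286, 0.0357 after adjustment over the 5 shares). Since the shares of a library have a fixed sum, a lower share of *opn1sw1* raises those of the others by construction.

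The blue opsin gene *opn1sw2* took 9.99%, 9.91%, 10.3% and 10.0% of the reads in controls and 13.1%, 13.7%, 14.6% and 13.3% in mutants. Its share varied less between controls than that of any other member relative to its size (10.1% ± 0.19), and it was higher in all 4 mutants (13.7% ± 0.68, SD, n = 4). The green opsin gene *opn1mw1* took 18.8%, 17.1%, 17.9% and 20.2% in controls and 21.9%, 23.4%, 21.7% and 25.6% in mutants. *opn1mw2* took 0.213%, 0.193%, 0.292% and 0.207% in controls and 1.14%, 2.80%, 3.14% and 2.93% in mutants. For each of these 3 genes the mutants lay above the controls without overlap (exact permutation test, adjusted p = 0.0357). None of the 3 passed when shares were taken without *opn1sw1* in the sum. The differences were then 0.69 percentage points for *opn1sw2* and -1.50 for *opn1mw1* (exact permutation tests, adjusted p = 0.543 in each). That of *opn1mw2* was 3.30 percentage points, with the smallest p this test allows (exact permutation test, p = 0.0286, adjusted p = 0.114). A single share at that p cannot pass after adjustment over the remaining shares, so this test cannot decide for *opn1mw2*. The red opsin gene *opn1lw2* took 22.9% ± 5.06 in controls and 27.9% ± 3.39 in mutants (SD, n = 4 each), and these groups overlapped (exact permutation test, p = 0.229). Its share was higher in the mutants of clutches 1 to 3 and lower by 1.49 percentage points in clutch 4.

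**Figure D2:**
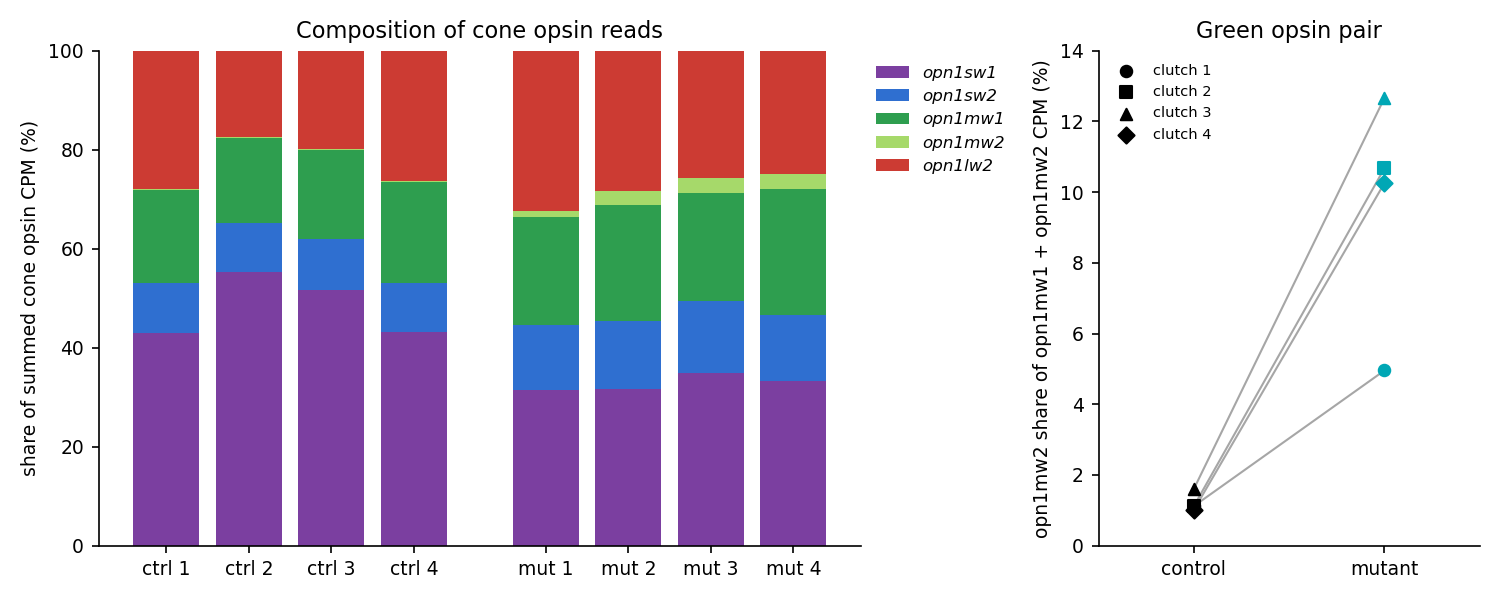
Left, share of each of the 5 genes in the summed cone opsin CPM (percent) of each control (ctrl) and mutant (mut) library by clutch number. Right, share of *opn1mw2* in the CPM of *opn1mw1* and *opn1mw2* together, with lines joining the libraries of a clutch. The *opn1sw1* share is 43.0% to 55.3% in controls and 31.5% to 34.9% in mutants, and the *opn1mw2* share on the right is 1.01% to 1.60% in controls and 4.96% to 12.7% in mutants.

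Ratios between members show which of them changed unequally, without the limit that shares set. Of the 10 pairs, 7 differed between mutants and controls (exact permutation tests, two-sided, p = 0.0286 and adjusted p = 0.0408 in each). That p is the smallest this test allows, so the adjusted value depends on how many of the 10 ratios reached it. The ratios share genes, and 4 of the 7 involve *opn1mw2*, so they are not 7 independent results. *opn1sw1* fell more than each of the other 3 falling genes. Its log2 ratio to *opn1sw2* was 2.11, 2.48, 2.32 and 2.10 in controls and 1.27, 1.21, 1.25 and 1.32 in mutants, a nearly constant value in mutants. The mean of this ratio differed by -0.99, with -1.27 to -0.79 within clutches, so *opn1sw1* fell 1.99-fold more than *opn1sw2*. The ratio of *opn1sw1* to *opn1mw1* differed by -0.87 (-1.26 to -0.67 within clutches) and that to *opn1lw2* by -0.85 (-1.50 to -0.29 within clutches).

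All 4 ratios that involve *opn1mw2* differed too. Those of *opn1sw1*, *opn1sw2* and *opn1mw1* to *opn1mw2* differed by -3.93, -2.94 and -3.06 on the log2 scale. The ratio of *opn1mw2* to *opn1lw2* differed by 3.08. In each of these ratios clutch 1 had the smallest difference, and mutant 1 stood apart from the other mutants.

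Blue, green and red opsin genes did not differ detectably from each other in how far they fell. The ratio of *opn1sw2* to *opn1mw1* differed by 0.12, with 0.01 to 0.23 within clutches (exact permutation test, p = 0.229, adjusted p = 0.286). The ratio of *opn1sw2* to *opn1lw2* differed by 0.14, with -0.23 to 0.49 within clutches (exact permutation test, adjusted p = 0.540). The ratio of *opn1mw1* to *opn1lw2* differed by 0.02, with -0.24 to 0.42 within clutches (exact permutation test, p = 0.886). The 95% intervals of the mean within-clutch difference ran from -0.04 to 0.27, from -0.34 to 0.61 and from -0.44 to 0.48 for these 3 pairs. These intervals treat the 4 within-clutch differences as normally distributed, so unequal falls of up to 0.61 on the log2 scale remain possible.

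**Figure D3:**
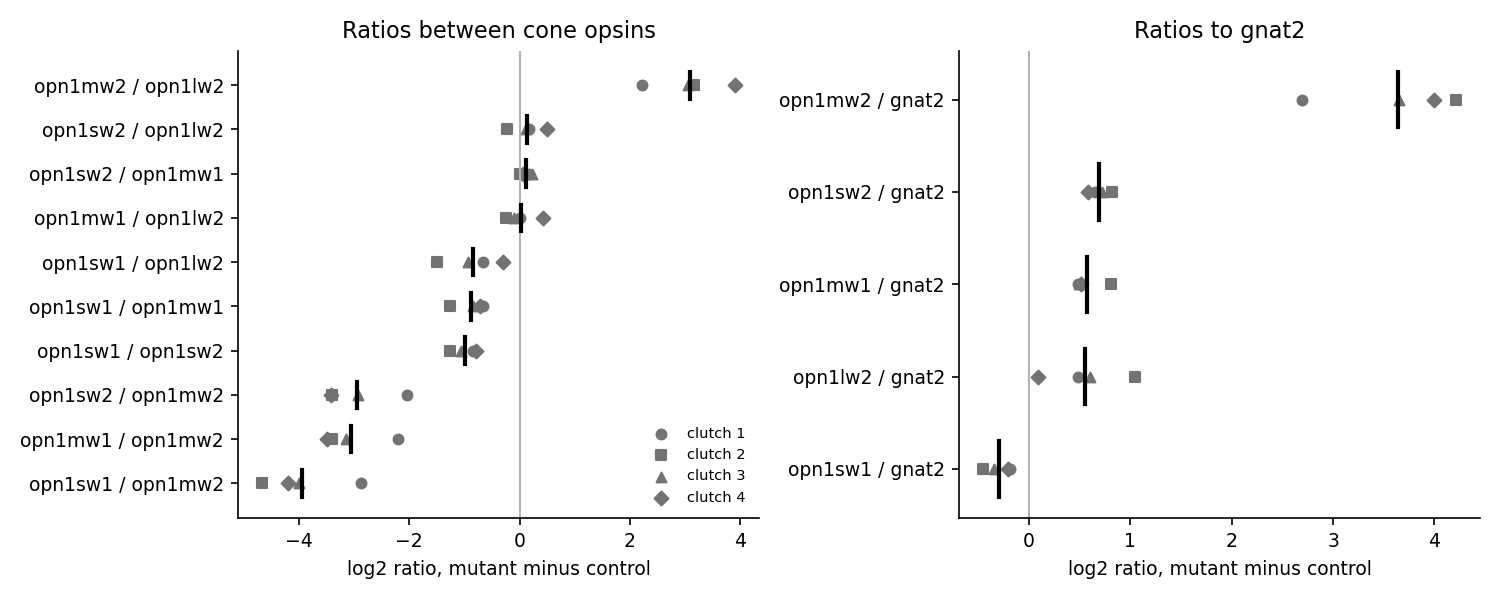
Mutant minus control difference of the log2 ratio of 2 genes, for the 10 pairs of cone opsin genes (left) and for each of them against *gnat2* (right). Points are the 4 clutches and black bars their means. The 3 pairs among *opn1sw2*, *opn1mw1* and *opn1lw2* have means from 0.02 to 0.14, and all pairs with *opn1mw2* reach 2.04 or more in size in every clutch.

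*gnat2* encodes the alpha subunit of cone transducin, the G protein that opsin activates in all kinds of cones, and served as a common reference. Its controls stood at 8.30, 9.13, 9.02 and 9.11 log2 CPM and its mutants at 6.45, 6.32, 6.44 and 6.22, a difference of -2.53 (standard error 0.17, limma adjusted p = 0.00039). It was lower in every mutant than in every control. *opn1sw1* fell by slightly more than *gnat2* in all 4 clutches, with a ratio that differed by -0.29 (-0.45 to -0.18 within clutches), but the groups overlapped (exact permutation test, adjusted p = 0.171). The ratio to *gnat2* was higher in the mutants of all 4 clutches for the other members, by 0.70 for *opn1sw2*, 0.58 for *opn1mw1*, 0.56 for *opn1lw2* and 3.64 for *opn1mw2*. None of the 5 passed after adjustment in the unpaired test (exact permutation tests, lowest adjusted p = 0.0714, p = 0.0286 for *opn1sw2* and *opn1mw2*). For *opn1sw2* and *opn1mw2* that p is the smallest possible, so the adjusted test cannot decide for them. The unpaired test leaves out the pairing by clutch, and an exact paired test of 4 clutches cannot give a p under 0.125. The 95% interval of the mean within-clutch difference lay below 0 for *opn1sw1* (-0.49 to -0.09), above 0 for *opn1sw2* (0.54 to 0.85), *opn1mw1* (0.33 to 0.82) and *opn1mw2* (2.57 to 4.71), and spanned 0 for *opn1lw2* (-0.08 to 1.19). These intervals were chosen after seeing the data and were not adjusted over the 5 ratios. They treat the 4 differences as normally distributed and are given as a description.

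With *pde6c* or *arr3a* as the reference gene, the ratios of *opn1sw2*, *opn1mw1* and *opn1lw2* had no common sign across clutches. *pde6c*, the catalytic subunit of cone phosphodiesterase, differed by -1.58 (standard error 0.26, limma adjusted p = 0.0223, and 0.147 or 0.193 without clutch 2 or 3). *arr3a*, an arrestin of cones that ends opsin signaling, differed by -1.55 (standard error 0.39, limma adjusted p = 0.143, and 0.000541 with clutch as a block). It was called without a clutch term when control 4 was left out (log2 difference -1.95, adjusted p = 0.0144). In control 4 *pde6c* (6.97 log2 CPM) and *arr3a* (7.61 log2 CPM) stood lowest among controls, while *opn1sw2*, *opn1mw1* and *opn1lw2* stood highest. In mutant 4 *pde6c* (5.69) and *arr3a* (6.60) stood lowest among mutants. Against *pde6c*, the ratios of *opn1sw2*, *opn1mw1* and *opn1lw2* differed by -0.26, -0.38 and -0.40 on average, with overlapping groups and 2 clutches up and 2 down in each (exact permutation tests, adjusted p = 0.714). Clutch 4 had the most negative values, -1.02, -1.09 and -1.52. Against *arr3a* they differed by -0.29, -0.41 and -0.43 on average, with 2, 1 and 1 clutches up (exact permutation tests, adjusted p = 0.8), and clutch 4 was again the most negative, at -1.29, -1.36 and -1.78. *opn1sw1* differed by -1.25 and -1.28 against these 2 genes, and *opn1mw2* by 2.68 and 2.66, both in the same direction as against *gnat2*. Neither opsin passed. Against *pde6c* the groups did not overlap (exact permutation tests, p = 0.0286 and adjusted p = 0.0714 in each). That p is the smallest possible, so the adjusted test cannot decide for either opsin against *pde6c*. Against *arr3a* the groups overlapped (exact permutation tests, adjusted p = 0.214 in each).

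*rho*, the opsin gene of rods, fell by 2.72 on the log2 scale (standard error 0.24, limma adjusted p = 0.00105). The ultraviolet opsin gene followed it closely: the ratio of *opn1sw1* to *rho* differed by -0.11, with -0.28 to 0.22 within clutches (exact permutation test, p = 0.543). The blue and the green opsin genes fell less than *rho*, with ratios that differed by 0.88 for *opn1sw2* and 0.76 for *opn1mw1* (exact permutation tests, adjusted p = 0.0476 in each). The ratio of *opn1lw2* to *rho* differed by 0.74 with overlapping groups (exact permutation test, adjusted p = 0.0714), and that of *opn1mw2* by 3.83 (adjusted p = 0.0476). For *opn1sw2*, *opn1mw1* and *opn1mw2* the p before adjustment was the smallest possible (exact permutation tests, p = 0.0286). The adjusted value depends on how many of the 5 ratios reached that p. Against *gnat2*, *opn1sw2* and *opn1mw2* had the same p before adjustment and did not pass after it.

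Most other genes of the cone light response fell as well. At an unadjusted p under 0.05, limma gave 6.11% of all genes as lower and 5.84% as higher, the background for the counts at that threshold. The background for called genes was 1.16% lower and 0.363% higher. Of 28 measured genes of cone phototransduction apart from opsins, 20 were called lower and 0 higher (24 lower and 0 higher at an unadjusted p under 0.05 by limma), with a median log2 difference of -1.69 beside 0.03 over all genes. With clutch as a block 24 were called lower and 0 higher, against 7.86% of all genes called lower, and without clutch 3 and with no clutch term 13 were lower. In 21 of the 28 every mutant lay below every control, as in 3.34% of all genes. *gnat2*, *grk1b* (a kinase of opsins, -2.97), *rgs9a* (which speeds the shutoff of transducin, -1.83) and *rcvrn2* (a recoverin, -1.38) had the smallest p-values. The list is of cone genes, but some members, such as *gucy2f* and *slc24a1*, are also used in rods.

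The fall of *opn1sw1* was exceeded by 4 of these 28 genes, and the falls of *opn1lw2*, *opn1mw1* and *opn1sw2* lay near the middle of the list. Among the 4, *guca1d* (-3.19, standard error 0.71) lay near the floor, with mutants at -1.86, -3.17, -3.38 and -5.02 log2 CPM. 1 gene of the list was above 0, *gnb3a* (0.01), and *gngt2a* stood at -0.11. Their paralogs *gnb3b* and *gngt2b*, which encode the transducin beta and gamma subunits of cones, differed by -2.25 and -2.17. *opn1mw2* thus had a higher difference (1.11) than any of the 28 genes, which ranged from -3.71 to 0.01.

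**Figure D4:**
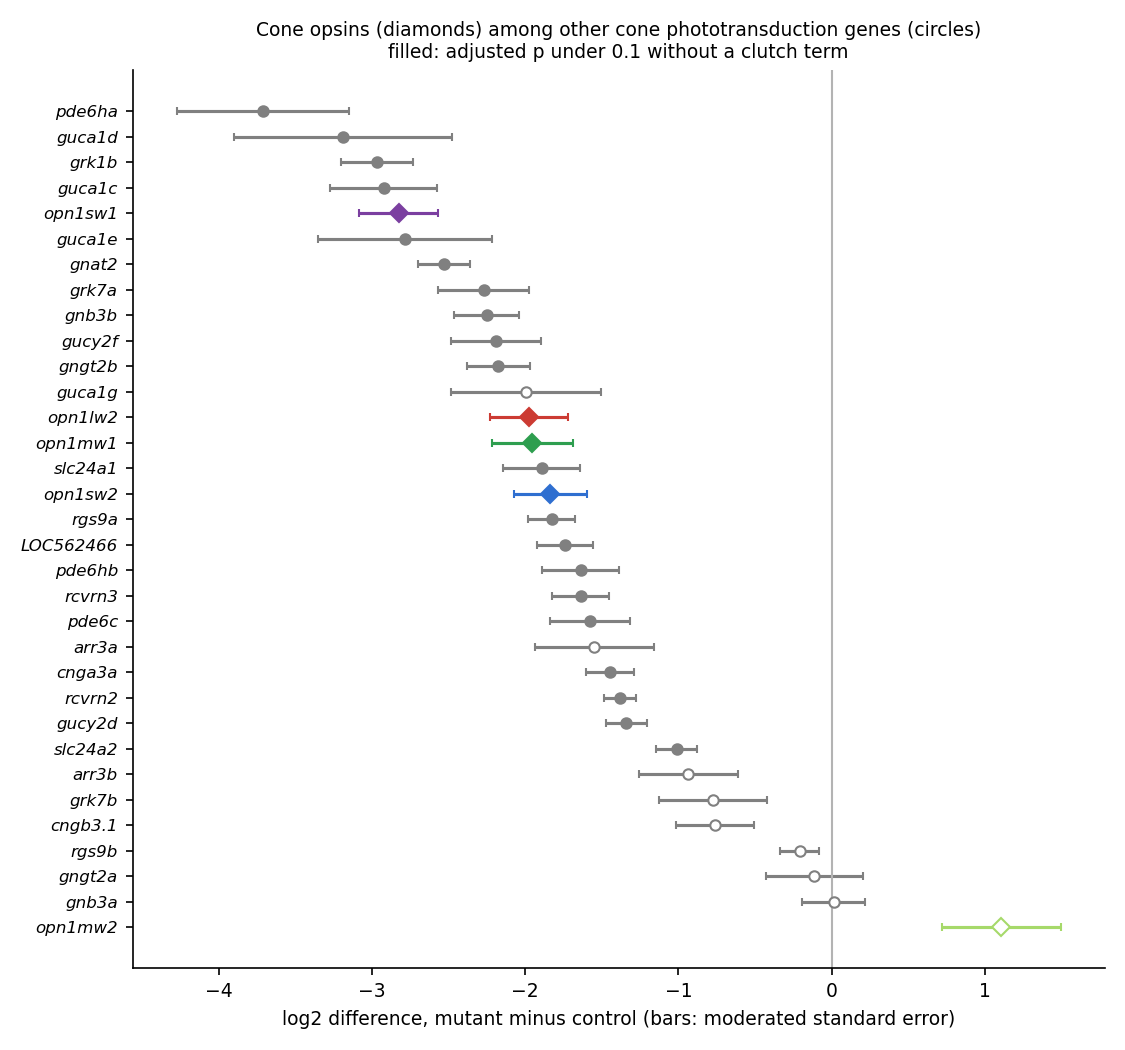
Log2 difference, mutant minus control, of the 5 cone opsin genes (diamonds) and 28 other cone phototransduction genes (circles), with bars for limma's moderated standard error. Filled symbols passed an adjusted p under 0.1 without a clutch term. *opn1sw1* (-2.82) lies among the largest falls, *opn1lw2*, *opn1mw1* and *opn1sw2* (-1.97 to -1.83) near the middle, and *opn1mw2* (1.11) above all others.

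Transcription factors that set cone identity and switch opsin genes on mostly did not pass the test. Of 31 measured genes of this list, 1 was called lower and 0 higher (5 lower and 1 higher at an unadjusted p under 0.05 by limma), with a median log2 difference of 0.00. The block fit called 7 lower and 3 higher (7.86% and 6.48% of all genes). When single clutches were left out of the block fit, 2 to 7 were lower and 0 to 3 higher. The called gene was *six7*, which zebrafish need for green opsin expression, with -0.76 (standard error 0.16, limma adjusted p = 0.0689, and 0.000953 with the block). Its call was not kept without control 2, control 4, mutant 2, mutant 3 or mutant 4 and no clutch term. *six6b*, which acts with *six7* on blue and green opsin genes in zebrafish, differed by -0.34 (block adjusted p = 0.0495), and *foxq2*, a factor of blue cones, by -0.64 (block adjusted p = 0.0623). The other genes called lower with the block were *otx5* (-0.29), *rx1* (-0.29), *rx2* (-0.57) and *samd7* (-0.49). Those called higher with it were *gdf6a*, a growth factor gene in the list (0.40, every mutant above every control), *rorb* (0.27) and *otx2b* (0.25). *thrb*, needed for red cones, stood at 0.05, *tbx2b*, needed for ultraviolet cones, at 0.08, and *crx*, a general photoreceptor factor, at 0.05.

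Markers of rods fell beside the cone opsins, and those of the other eye cells listed did not pass without a clutch term. Of 22 measured rod markers 17 were called lower and 0 higher (18 and 0 at an unadjusted p under 0.05 by limma, 17 and 0 with the block), with a median log2 difference of -1.95, the same as that of the 5 cone opsins. Of all genes, limma called 1.16% lower, 6.11% at an unadjusted p under 0.05 and 7.86% with the block. Without clutch 2 or clutch 3, 11 rod markers were lower. The lowest p-values were those of *pde6a* (-2.45), *gnat1* (-3.00), *rom1a* (-2.01) and *gngt1* (-2.83), genes of the rod light response and disc rim. Summed rod markers held 2240 to 4397 CPM in controls and 891 to 1035 CPM in mutants.

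Of 70 markers of bipolar cells, Muller glia, retinal pigment epithelium, amacrine, horizontal and ganglion cells and lens, 0 were called in either direction (4 higher and 5 lower at an unadjusted p under 0.05 by limma), and with the block 13 were higher and 8 lower, against 6.48% and 7.86% of all genes. The list of amacrine, horizontal and ganglion cells held 8 of these 13 and 2 of these 8 among its 19 genes. Their medians were 0.07 for bipolar cells, 0.19 for Muller glia, -0.13 for pigment epithelium, 0.20 for amacrine, horizontal and ganglion cells and 0.03 for lens. Summed markers overlapped between the groups in each of these 5 lists. For example, bipolar markers summed to 448 to 538 CPM in controls and 460 to 532 CPM in mutants. Leaving out control 1 gave up to 4 higher and 2 lower in the list of amacrine, horizontal and ganglion cells and 2 lower in that of pigment epithelium. Of 13 housekeeping genes 0 were called (1 higher at an unadjusted p under 0.05 by limma, 1 lower with the block), with a median of 0.01. The part of cell numbers in the opsin changes was not tested.

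Opsin genes outside the cones mostly did not pass the test. Over all genes, limma called 1.16% lower and 0.363% higher, and 7.86% and 6.48% with the block. At an unadjusted p under 0.05 it gave 6.11% lower and 5.84% higher. Of 20 measured opsin genes outside the cones, 3 were called lower and 0 higher (6 lower and 0 higher at an unadjusted p under 0.05 by limma, 5 lower and 0 higher with the block). Their median was -0.23. The 3 were *rho*, its paralog *rhol* (-3.00, adjusted p = 0.00286) and *exorh*, the rhodopsin of the pineal organ (-1.04, adjusted p = 0.061). Of 10 pineal markers, 2 were called lower, *gngt1* and *exorh*, and 0 higher (5 lower and 1 higher at an unadjusted p under 0.05 by limma, 4 lower and 1 higher with the block). Only 1 was lower without control 4, mutant 2, 3 or 4, or clutch 2, 3 or 4. *gngt1* is also in the list of rod markers, so its fall was counted in both lists and is not particular to the pineal organ.

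Across the 8 libraries the 4 falling opsin genes moved together, with Pearson correlations of 0.957 to 0.994 between them, a description that includes the difference between the groups. By the same measure, the genes most like *opn1sw1* were *tgm1l3* (a transglutaminase gene, 0.998), *gnat1* (0.997), *gnb3b* (0.996), *grk1b* (0.995) and *rho* (0.993), all called lower. *opn1sw2* was most like *opn1mw1* (0.994), and *opn1lw2* was also most like *opn1mw1* (0.980). For *opn1mw2* the most similar genes were *mgst1.1* (0.977), *ngb* (0.970), *eif2ak3* (0.965), *ccl25b* (0.964) and *prdm2a* (0.956), none of them called. *ngb*, which encodes neuroglobin, stood at a log2 difference of 0.58 (limma adjusted p = 0.208). The libraries share clutches and a genotype contrast, so these values are not independent.

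Other measured genes within 3 places of the opsin genes were not called without a clutch term. In the RefSeq gene order *opn1sw2* and *opn1lw2* lie on the same chromosome with *opn1lw1* between them, and the 5 members lie on 3 chromosomes, none shared with *traf3ip1*. The nearest measured genes were *slc6a22.2* (-0.10) and *synprb* (-0.13) for the green pair, *hcfc1a* (0.17) and *gnl3l* (0.03) for *opn1sw2* and *opn1lw2*, and *calua* (-0.15) and *tnpo3* (0.01) for *opn1sw1*. With the block *hcfc1a* was called (limma adjusted p = 0.0867). Farther out, within 3 genes of an opsin gene, *fkbp5* near *opn1mw1* differed by -0.71 (limma adjusted p = 0.343, and 0.00266 with the block) and *si:dkey-13a21.4* near *opn1sw2* by -0.59 (limma adjusted p = 0.428, and 0.126 with the block).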

How the data were processed

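RNA of whole larvae was sequenced by the authors. Filtered reads were aligned by HISAT and Bowtie2, and RSEM gave the counts of each gene. By the paper's methods, genes whose mean CPM was 1 or less were dropped, and voom of limma made log2 values. That filter may not hold for the deposited values. They include *guca1d*, whose log2 CPM ran from -5.02 to 0.91 and was below 0 in most libraries. The submitters' processing notes name the build GRCz11. The deposited values are log2 CPM of 20409 genes, and linear values of a library sum to 997999 to 998008. Their sorted values above 0 differed by at most 0.07 between libraries. A deposited table of the authors' comparison (log2 differences, moderated statistics and p-values) was used for gene symbols only.

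Mutants were compared with controls from the log2 values by limma 3.58.1 in R 4.3.3 (two-sided moderated test, mean-variance trend, no clutch term), with Benjamini-Hochberg adjustment over all genes, no filter and no pseudocount, called at an adjusted p under 0.1. Shares and ratios were taken from 2 to the power of the values and tested by exact permutation over 70 splits of 4 against 4 (smallest p 0.0286, called at an adjusted p under 0.05), adjusted over 5 shares, 10 pairs or 5 ratios. Where several shares or ratios adjusted together reach that smallest p, their adjusted p depends on how many do. The exact tests ignore the clutches, and 95% intervals of ratios were therefore also taken from the 4 within-clutch differences (t distribution, chosen after seeing the data). Numbers given to libraries are those of clutches in the titles, and libraries of a clutch deviated together (r 0.325 to 0.640, other pairs -0.362 to 0.0917), so values of the fit that blocks on clutch are printed wherever the call of a gene depends on it.

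The members and the gene lists (184 of 205 listed symbols were found) were chosen with earlier results of these data known. Genes named are the 5 members, *gnat2*, *pde6c*, *arr3a*, *rho* and *traf3ip1*, from each list the 4 called genes of lowest p and at most 2 that moved the opposite way, and the 5 genes most like each member (Pearson r over 8 libraries, 15142 genes with a proper symbol and a mean log2 value of at least 1). Transcription factors, neighbors and paralogs named besides these were chosen after their values were seen. The scripts were checked on simulated data. Alternatives were no trend, robust moderation, vooma and library weights, a mean log2 minimum of 1, a pseudocount of 1, centering on housekeeping genes, the block, stricter thresholds and leaving out libraries or clutches. Chosen after seeing the data were the block fits without a clutch and the summed green pair. Figures were drawn with matplotlib 3.10.9.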

Additional observations from a re-analysis of the deposited data

Results flagged for a closer look

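Among 60 groups of 4 libraries looked at, 5 held a library far from the other 3, where chance alone gives about 1 in 20. In mutants, the log2 ratio of *opn1sw1* to *opn1mw2* was highest in mutant 1 at 4.79, against 3.47 to 3.50 in the other mutants. The ratio of *opn1sw2* to *opn1mw2* was likewise highest in mutant 1, at 3.52, against 2.19 to 2.29. Both ratios of mutant 1 lay below those of all controls. The ratio of *opn1mw1* to *gnat2* was highest in mutant 4 at 1.58, against 0.90 to 0.93 in the others. *gnat2* was lowest among controls in control 1, at 8.30 log2 CPM, and *arr3a* lowest among mutants in mutant 4, at 6.60 log2 CPM.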

How the results depend on the processing

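The 4 opsin falls kept their direction and their call in all 40 other cases (1 gene in 1 setting, stricter thresholds included) that kept every library. Their log2 differences were then -2.96 to -1.82 (limma adjusted p 5.94e-05 to 0.0213). The same held in all 32 cases that left out 1 library. Leaving out 1 library or 1 clutch gave -3.11 to -2.66 for *opn1sw1*, -2.07 to -1.62 for *opn1sw2*, -2.18 to -1.69 for *opn1mw1* and -2.18 to -1.68 for *opn1lw2*. Without clutch 2 or 3 the calls of *opn1sw2* (-1.78 and -1.83) and *opn1mw1* (-1.94 and -1.91) were lost, as was that of *opn1lw2* without clutch 3 (-1.97), in fits with fewer libraries and no clutch term. The number of opsins called lower was then 2 and 1, and ranged from 1 to 4. Other cone phototransduction genes called lower ranged from 13 to 23.

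With clutch as a block, *opn1mw2* was called higher (1.11, and 1.19, 1.01, 1.12 and 1.11 without clutch 1, 2, 3 and 4), so that 1 opsin was higher. Without that block, leaving out libraries or clutches gave 0 to 1 higher. In the other fits with all libraries its adjusted p was 0.129 to 0.378, and leaving out libraries or clutches gave 0.85 to 1.45. The block changed no call of the other 4 opsins.

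With *opn1sw1* left out of the denominator, the share of *opn1sw2* rose by 0.69 and that of *opn1mw2* by 3.30 percentage points. Neither passed (exact permutation tests, adjusted p = 0.543 and 0.114). For *opn1mw2* the p before adjustment was the smallest possible (exact permutation test, p = 0.0286), so the adjusted test cannot decide. The differences of *opn1mw1* and *opn1lw2* turned to -1.50 and -2.49. Leaving out 1 library gave differences in share of -17.2 to -13.1 for *opn1sw1*, 3.29 to 3.81 for *opn1sw2*, 3.82 to 5.21 for *opn1mw1*, 2.06 to 2.73 for *opn1mw2* and 3.13 to 6.62 for *opn1lw2*. With 3 against 4 the exact test cannot go under 0.0571, so these are values only. Mean ratios to *pde6c* in place of *gnat2* were -0.26 for *opn1sw2*, -0.38 for *opn1mw1* and -0.40 for *opn1lw2*, and those to *arr3a* -0.29, -0.41 and -0.43, with clutches of both signs and none near passing (exact permutation tests, p = 0.629 to 0.8). The cause was not tested. Shares divided by coding length were not run, since no coding lengths were used here. Shares with further cone opsin copies in the denominator were not run, since these copies were not found among the genes with a value. Depth is unknown, so counting error, which weighs most on *opn1mw2*, could not be given.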
